A study of Homo sapiens with 19 samples.

Results

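The genes described here are the replication-independent histone variants, a family of histone genes whose messenger RNAs are made outside S phase. They were listed by symbol, with no cut on a measured value, but with earlier results of these data known. H2AFZ and H2AFV encode the H2A.Z proteins, and H2AFY and H2AFY2 encode macroH2A. H2AFJ encodes H2A.J, H3F3A and H3F3B encode the same H3.3 protein, and H1FX encodes a linker histone. These 8 symbols each have a row among the 23367 genes of the deposited count table. Of these, 6 passed the filter on low counts and stand among the 14793 genes tested; H2AFJ and H3F3A did not.

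Histones are the proteins around which DNA is wound into nucleosomes. The canonical histones are made in bulk while DNA is copied, whereas the variants are placed into chromatin at other times by chaperones and remodelling complexes of their own. H2A.Z sits beside gene starts and regulatory elements, H3.3 marks active and heterochromatic regions where nucleosomes are replaced, and macroH2A is known from silenced chromatin. H1FX encodes a linker histone, which binds where DNA enters and leaves the nucleosome, and H2A.J is known from senescent human fibroblasts.

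RNA was sequenced from SHEP TET21N, 1 established human neuroblastoma line with a mesenchymal-like character in which a MYCN transgene is shut off by doxycycline. MYCN-high cells were grown without doxycycline and MYCN-low cells with it, so every comparison of the states is also a comparison without and with the antibiotic. Each state was sampled untreated, after 72 h in 0.1 µg/ml doxorubicin (a drug that traps topoisomerase II and breaks DNA), and 3, 8 and 14 days after the drug was washed out. The 10 groups held 19 libraries, labelled as biological duplicates B and C, except for MYCN-low cells at 14 days, which had replicate B alone.

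No untreated cells were matched to the later times, so time in culture and the drug cannot be told apart. The p-values measure the spread between these duplicates. Total counts over genes ran from 16530112 to 27638012 per library. Levels are given in CPM, a gene's reads scaled to the summed gene counts of its library, and fold changes come from an edgeR quasi-likelihood fit with TMM scaling. A gene is called where its p-value, adjusted over all tested genes of that comparison by the Benjamini-Hochberg method, is below 0.05, and ± after a log2 fold change is its approximate standard error. The libraries are bulk samples, in which fewer cells of a type and less RNA per cell cannot be told apart.

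MYCN, the check of the labels, ran from 594 to 1416 CPM in MYCN-high libraries and from 13.5 to 30.7 CPM in MYCN-low libraries. Of the 7 mesenchymal-like markers all were counted, and their sum differed by state without overlap, from 1825 to 3050 CPM in MYCN-high libraries and from 4628.5 to 14655 CPM in MYCN-low libraries. In MYCN-high cells 4 of the 7 were called lower untreated, 3 at 72 h, 3 at 3 days, 6 at 8 days and 5 at 14 days. Of all tested genes 18.6%, 14.4%, 14.8%, 20.5% and 20.5% were called lower in these comparisons. The 3 epithelial markers summed to 116 and 140 CPM in MYCN-high cells untreated, against 348 and 391 CPM in MYCN-low cells. Of the 2 tested, 1 was called lower in untreated MYCN-high cells, beside 18.6% of all genes. The part of these markers in the differences between the states was not tested. The 6 adrenergic neuroblastoma markers summed to between 48.2 and 326.7 CPM, nearly all of it HAND2, while PHOX2A was at 0 and DBH and TH were at most 0.0975 CPM. Leucocyte markers summed to at most 2.04 CPM. The MYCN-low untreated duplicates stand further apart than the others: 2647 genes differed more than 2-fold between them, while the other 8 pairs had 1103 to 1664 such genes. Every change is relative to the other genes of the same library: scaling by the ERCC spike-in RNAs instead moved the median of all genes by between -1.44 and 2.51 on the log2 scale across the 17 comparisons. Measured from that moved median, all 44 called member results kept their direction, and measured from 0, 14 of them reversed. The scaling moves all genes of a library alike, so keeping direction from the median is nearly fixed in advance and is no separate check.

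Per length of transcript, H2AFZ and H3F3B were the most abundant members in untreated cells. H2AFZ averaged 610 ± 30.5 CPM per kb in MYCN-high cells and 342 ± 35.2 CPM per kb in MYCN-low cells (SD, n = 2 each). H3F3B averaged 543 ± 12.0 CPM per kb in MYCN-high cells and 449 ± 81.2 CPM per kb in MYCN-low cells. H2AFV came next with 82.2 ± 3.40 and 92.0 ± 11.0 CPM per kb in MYCN-high and MYCN-low cells, and H2AFY followed with 60.7 ± 4.41 and 44.8 ± 1.60 CPM per kb. The linker variant H1FX lay lower, at 11.3 ± 0.652 CPM per kb in MYCN-high cells and 33.1 ± 23.7 CPM per kb in MYCN-low cells, where its spread reaches the level of H2AFY, so that their order there is not resolved.

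Against untreated cells of the same state, every member that passed the test was lower. In MYCN-high cells 4 of 6 tested members were called at 72 h, beside 36.2% of all tested genes, and 4 at 3 days, beside 30.8%. At 8 days 1 was called, beside 8.58%, and at 14 days 0, where 0% of all tested genes were called. In that last comparison edgeR gave 1245 genes and 0 members an unadjusted p below 0.05, and DESeq2's Wald test called 62 genes and 0 members. The median log2 fold change of the 6 members in MYCN-high cells was -1.06, -0.98, -0.26 and 0.20 at the 4 times in order, against medians of all genes between -0.01 and 0.03.

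MYCN-low cells kept more members called at the late times. In them 3 members were called at 72 h, beside 22.3% of all genes, 3 at 3 days, beside 23.2%, 4 at 8 days, beside 24.9%, and 4 at 14 days, beside 18.4%. The members' median was -0.60, -0.66, -0.82 and -0.89, against medians of all genes between -0.05 and 0.02. All 8 of these comparisons share the untreated libraries of their state. When the response in one state was tested against that in the other, 1 of 6 members was called at 72 h (10.7% of all genes), 0 at 3 days (7.58%), 2 at 8 days (6.35%) and 3 at 14 days (7.41%). At 3 days edgeR gave 3 members an unadjusted p below 0.05, and DESeq2's Wald test called 1. Without MYCN-low untreated replicate C, 2 were called at 3 days, H1FX (1.81, adjusted p = 0.00643) and H3F3B (-0.92, adjusted p = 0.0179).

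Between the states at a matched time, 3 of 6 members were called in untreated cells (35.1% of all genes), 2 at 72 h (29.9%), 2 at 3 days (31.8%), 4 at 8 days (43.9%) and 4 at 14 days (41.8%). The 4 at 8 days include H2AFY2, which passed the filter on low counts through MYCN-high libraries. The untreated count drops to 1 without MYCN-low untreated replicate B. At 3 days it is 1 without MYCN-high replicate B or either MYCN-low library. At 8 days it is 2 without MYCN-low replicate B and 2 without MYCN-high replicate C, and at 14 days 2 without MYCN-high replicate B. Directions differed among members and times: H2AFZ was called higher in MYCN-high cells at 4 of 5 times and H2AFY at 4, whereas H2AFV and H3F3B were called lower in them at 72 h and higher at 14 days.

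**Figure D1:**
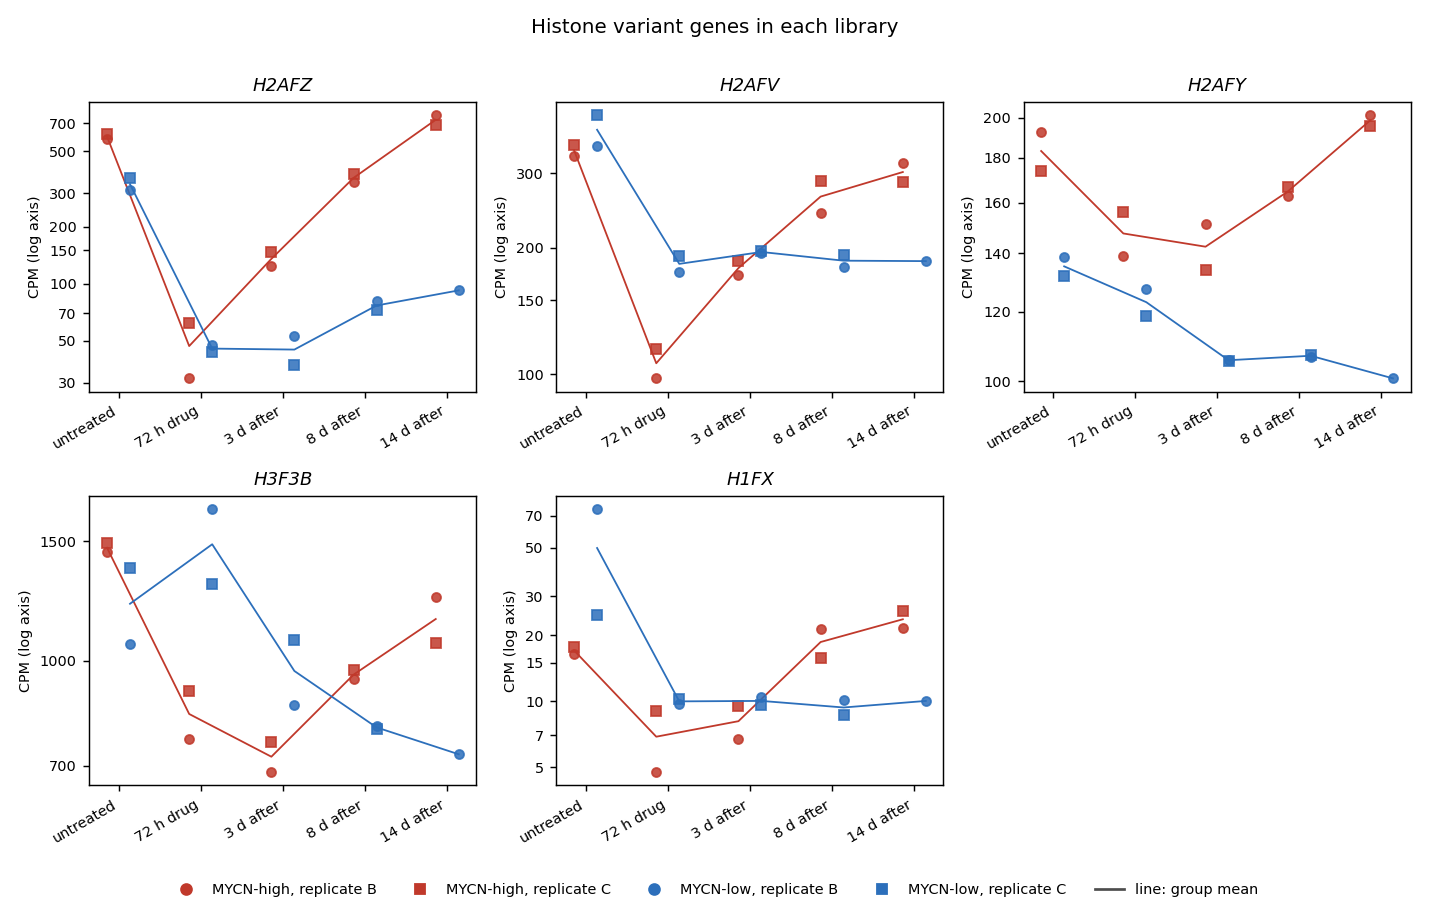
CPM (log axis, a different range in each panel) of 5 histone variant genes in each of the 19 libraries, by time, with MYCN-high libraries to the left of MYCN-low libraries; lines join group means. H2AFZ falls in both states and returns in MYCN-high libraries, H2AFY lies higher in MYCN-high libraries at every time, and the MYCN-low untreated duplicates of H1FX stand at 75.1 and 24.6 CPM.

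H2AFZ, the main gene of H2A.Z, showed the largest change from untreated cells among the 6 tested members at 72 h and 3 days. In MYCN-low cells H1FX stood lower at 8 days (-2.41) and 14 days (-2.31), values that depend on MYCN-low untreated replicate B. In MYCN-high cells the level of H2AFZ was 576 and 618 CPM untreated, 31.7 and 62.2 CPM at 72 h, 124 and 146 CPM at 3 days, 342.5 and 380 CPM at 8 days, and 775 and 688 CPM at 14 days. MYCN-low cells had 310.3 and 359 CPM untreated, 47.3 and 43.8 CPM at 72 h, 52.8 and 37.2 CPM at 3 days, 81.2 and 72.4 CPM at 8 days, and 92.3 CPM at 14 days. In MYCN-high cells the pairs fall at 72 h and climb back at each later time without overlap between neighbouring times, and the 14-day pair lies above the untreated pair. In MYCN-low cells the 72 h and 3-day pairs overlap, and no treated library comes near the untreated pair.

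At 72 h H2AFZ had fallen by 3.67 ± 0.27 on the log2 scale in MYCN-high cells, a 12.7-fold lower level (edgeR adjusted p = 4.9e-07), and by 2.88 ± 0.26 in MYCN-low cells, 7.35-fold lower (adjusted p = 9.99e-07). The difference between these responses, -0.79 ± 0.34, did not pass the test (adjusted p = 0.144), though it did without MYCN-high 72 h replicate C (-1.33, adjusted p = 0.0227). At 8 days the change was -0.73 ± 0.24 in MYCN-high cells (adjusted p = 0.0771) and -2.12 ± 0.25 in MYCN-low cells (adjusted p = 3.97e-05), a difference of 1.40 ± 0.34 (adjusted p = 0.0268). That call was lost, at values from 1.31 to 1.46, when any one of 5 libraries was left out, which are both MYCN-high untreated, both MYCN-low 8-day and MYCN-high 8-day replicate C. At 14 days the changes were 0.29 ± 0.24 in MYCN-high cells (adjusted p = 0.789) and -1.86 ± 0.33 in MYCN-low cells (adjusted p = 0.00147), and their difference of 2.15 ± 0.40 passed the test (adjusted p = 0.00643).

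Between the states H2AFZ was higher in MYCN-high cells before treatment by 0.84 ± 0.24 (adjusted p = 0.0151), a call lost without MYCN-low untreated replicate B (0.73, adjusted p = 0.102) or MYCN-high untreated replicate C (0.76, adjusted p = 0.0853). At 72 h the states stood together, with 0.04 ± 0.25 (adjusted p = 0.917). MYCN-high cells were then higher by 1.59 ± 0.25 at 3 days, 2.23 ± 0.25 at 8 days and 2.99 ± 0.35 at 14 days, the last a 7.92-fold difference (adjusted p = 1.68e-05).

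The summed level of 6 proliferation markers, like H2AFZ, was lower at 72 h in both states. It was between 3663 and 3914 CPM in MYCN-high untreated libraries, 266 and 581 at 72 h, 1271 and 1287 at 3 days, 2529.5 and 2533 at 8 days, and 3049 and 3532 at 14 days. The MYCN-low sums were 2749 and 3310.0 CPM untreated, 253 and 264 at 72 h, 151 and 163 at 3 days, 366 and 552 at 8 days and 481 at 14 days. At 14 days in MYCN-high cells H2AFZ lay above its untreated pair and the sum below its own. Neither is a called change there: H2AFZ stood at 0.29 (edgeR adjusted p = 0.789), and 0 of the 6 markers had an unadjusted p below 0.05. In MYCN-low cells the sum was lower at 3 days than at 72 h, while the H2AFZ pairs overlap. All 6 markers were called lower at 72 h in MYCN-high cells and 5 in MYCN-low cells, beside 17.9% and 12.1% of all genes. At 72 h 5 of the 6 were called higher in MYCN-high than in MYCN-low cells and 1 lower, beside 15.5% and 14.4%. The markers' median log2 fold change there was 3.10, against 0.04 for H2AFZ. Their summed levels at 72 h were 266 and 581 CPM in MYCN-high and 253 and 264 CPM in MYCN-low libraries. For the difference between the 72 h responses 4 were called higher and 1 lower, beside 6.63% and 4.06% of all genes. The part of these markers in the H2AFZ result was not tested. The 3 tested genes whose group means were most like those of H2AFZ were MASTL (r = 0.993), STMN1 (r = 0.992) and RAD54B (r = 0.992), over 10 group means and 10431 genes. Of these, MASTL is a mitotic kinase, STMN1 a microtubule-destabilising protein and RAD54B a recombination factor.

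H2AFV, the second H2A.Z gene, moved in the same direction over a smaller range. In MYCN-high cells it had 330 and 350 CPM untreated, 97.7 and 115 CPM at 72 h, 172 and 185 CPM at 3 days, 241 and 287 CPM at 8 days, and 318 and 287 CPM at 14 days. MYCN-low cells gave 349 and 413 CPM untreated, 174 and 191 CPM at 72 h, 194 and 197 CPM at 3 days, 179.85 and 192 CPM at 8 days, and 186 CPM at 14 days. The 4 treated MYCN-low groups thus lie within 174 to 197 CPM with no order among them, while the MYCN-high pairs climb after 72 h, the 8-day and 14-day pairs overlapping.

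At 72 h H2AFV had fallen by 1.68 ± 0.15 in MYCN-high cells (adjusted p = 1.75e-06) and by 1.06 ± 0.15 in MYCN-low cells (adjusted p = 0.00011). MYCN-high cells were then below MYCN-low cells, at a log2 fold change of -0.79 ± 0.15 (adjusted p = 0.00113). The test of the difference between the 2 responses to the drug gave -0.62 ± 0.21 (adjusted p = 0.0711), which passed without MYCN-low untreated replicate C (-0.72, adjusted p = 0.0183). By 8 days H2AFV was higher in MYCN-high cells by 0.51 ± 0.15 (adjusted p = 0.0124), lost without MYCN-low 8-day replicate B (0.40, adjusted p = 0.123) or MYCN-high 8-day replicate C (0.38, adjusted p = 0.133), and also with no filter on low counts (0.45, adjusted p = 0.0706). The difference between the responses at 8 days, 0.67 ± 0.21, missed the threshold (adjusted p = 0.0722), and passed it with DESeq2's Wald test (0.58, adjusted p = 0.0461) and without MYCN-low untreated replicate B (0.78, adjusted p = 0.0382). At 14 days MYCN-high cells were higher by 0.70 ± 0.19 (adjusted p = 0.00748), lost without MYCN-high 14-day replicate B (0.57, adjusted p = 0.0544). The difference between the responses at 14 days, 0.87 ± 0.24 (adjusted p = 0.0396), was lost without any one of the 4 MYCN-high libraries in it, at values from 0.76 to 0.91. The group means most like those of H2AFV were those of ARL6IP6 (r = 0.975), SEPT10 (r = 0.975) and CCDC99 (r = 0.974).

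The unequal movement of these genes changed their balance. Per kb of transcript, the ratio of H2AFZ to H2AFV in MYCN-high cells was 7.38 and 7.47 untreated, 1.37 and 2.30 at 72 h, 3.06 and 3.34 at 3 days, 6.01 and 5.60 at 8 days, and 10.3 and 10.1 at 14 days. The MYCN-low ratios were 3.76 and 3.68 untreated, 1.15 and 0.968 at 72 h, 1.15 and 0.801 at 3 days, 1.91 and 1.59 at 8 days, and 2.10 at 14 days. MYCN-high libraries had the higher ratio at all 5 times with no overlap. A ratio within a library shows unequal change and does not depend on how libraries are scaled.

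**Figure D2:**
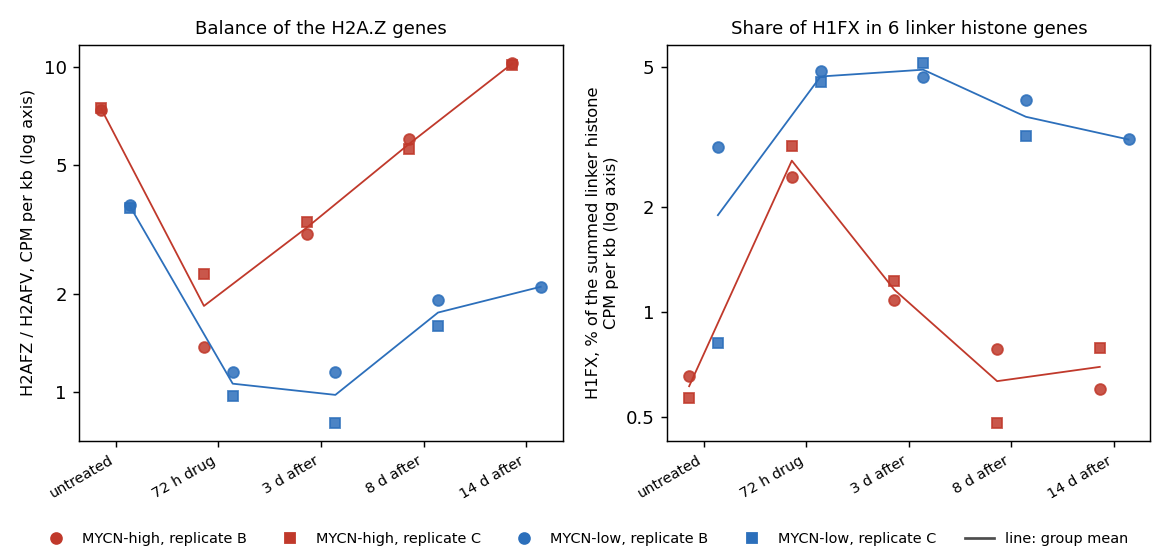
Left, the ratio of H2AFZ to H2AFV (CPM per kb, log axis) in each library; right, the share of H1FX in the summed CPM per kb of H1FX and 5 replication-dependent linker histone genes (percent, log axis); MYCN-high libraries stand to the left of MYCN-low libraries and lines join group means. The ratio ends at 10.3 and 10.1 in MYCN-high libraries and at 2.10 in the MYCN-low library at 14 days, and the H1FX share is between 3.11 and 5.16% in treated MYCN-low libraries.

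The promoters of the H2A.Z genes are shown because the genes encode nearly the same protein and yet moved by different amounts, and those of H3F3B and H1FX because these also differed between the states in their responses. Each runs 5′ to 3′ on the gene's strand, from 250 bases before to 50 bases after the annotated start, from RefSeq on GRCh38.p14, which is not the build of the count table. All 8 members matched the RefSeq table by current or older symbol, and all 8 had a promoter. Capitals mark matches on either strand to 4 short motifs: the CHR element TTTGAA of cell cycle genes, the CCAAT box, the E-box CACGTG recognised by MYC family proteins, and the TATA box as TATAAA. Sequences are given as H2AFZ (chr4:99950226-99950525, minus strand), H2AFV (chr7:44848038-44848337, minus strand), H3F3B (chr17:75779730-75780029, minus strand) and H1FX (chr3:129316237-129316536, minus strand).
H2AFZ: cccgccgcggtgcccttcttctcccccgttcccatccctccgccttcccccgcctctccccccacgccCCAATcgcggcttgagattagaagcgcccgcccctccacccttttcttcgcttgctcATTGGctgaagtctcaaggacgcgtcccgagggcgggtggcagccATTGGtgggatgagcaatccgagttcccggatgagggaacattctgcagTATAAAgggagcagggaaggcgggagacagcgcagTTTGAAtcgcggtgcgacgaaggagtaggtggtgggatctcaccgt
H2AFV: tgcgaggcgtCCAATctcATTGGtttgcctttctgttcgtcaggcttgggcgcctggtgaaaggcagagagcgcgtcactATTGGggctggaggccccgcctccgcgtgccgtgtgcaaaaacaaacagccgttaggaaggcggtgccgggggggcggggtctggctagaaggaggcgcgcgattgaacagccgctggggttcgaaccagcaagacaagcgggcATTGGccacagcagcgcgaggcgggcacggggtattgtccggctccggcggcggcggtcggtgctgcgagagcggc
H3F3B: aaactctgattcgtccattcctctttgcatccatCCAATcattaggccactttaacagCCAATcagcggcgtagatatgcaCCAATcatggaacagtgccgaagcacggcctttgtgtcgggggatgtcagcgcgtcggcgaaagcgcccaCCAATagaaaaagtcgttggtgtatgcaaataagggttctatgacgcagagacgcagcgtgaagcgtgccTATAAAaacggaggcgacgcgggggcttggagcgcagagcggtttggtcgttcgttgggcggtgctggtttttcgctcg
H1FX: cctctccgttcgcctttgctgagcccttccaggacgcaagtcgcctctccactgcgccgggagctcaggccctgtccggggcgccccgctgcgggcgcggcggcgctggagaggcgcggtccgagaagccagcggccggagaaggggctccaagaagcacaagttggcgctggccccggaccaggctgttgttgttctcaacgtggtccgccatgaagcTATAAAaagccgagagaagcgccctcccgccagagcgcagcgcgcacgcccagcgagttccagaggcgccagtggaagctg

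H2AFZ was the only member with a CHR match, which starts 5 bases after the annotated start and is held by 15.2% of all 35116 promoters in the table. It also had 3 CCAAT matches and a TATA match at -31. H2AFV and H3F3B each had 4 CCAAT matches, a motif that 34.6% of all promoters hold at least once. TATA matches were found in H2AFZ, H3F3B at -29 and H1FX at -31, against 11.5% of all promoters. No member's window held CACGTG, which 7.26% of all promoters do. None of the 4 motifs contains another, and a match is a string of letters, not a measured binding site.

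H2AFY, the main macroH2A gene, varied least among the members tested with over 100 CPM. In MYCN-high cells it had 193 and 174 CPM untreated, 139 and 156 CPM at 72 h, 151 and 134 CPM at 3 days, 163 and 167 CPM at 8 days, and 201 and 196 CPM at 14 days. Levels in MYCN-low cells were 139 and 132 CPM untreated, 128 and 119 CPM at 72 h, 106 and 105 CPM at 3 days, 107 and 107 CPM at 8 days, and 101 CPM at 14 days. Each MYCN-high pair lies above the MYCN-low libraries of its time, and all treated MYCN-low libraries lie below both untreated ones.

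H2AFY was called higher in MYCN-high cells in the untreated comparison by 0.44 ± 0.13 (adjusted p = 0.0171), at 3 days by 0.43 ± 0.13 (adjusted p = 0.0197), at 8 days by 0.62 ± 0.13 (adjusted p = 0.00123) and at 14 days by 0.98 ± 0.17 (adjusted p = 0.000294). At 72 h the value was 0.26 ± 0.13 (adjusted p = 0.148). The untreated call was lost without MYCN-high untreated replicate B (0.33, adjusted p = 0.160), and the 3-day call without MYCN-high 3-day replicate B (0.31) or either MYCN-low 3-day library (0.42 each); both were also lost with no filter (0.46 and 0.41). Of 8 comparisons with untreated cells 1 passed, MYCN-high cells at 3 days with -0.36 ± 0.13 (adjusted p = 0.046), and it was lost without either MYCN-high untreated library (-0.27 and -0.43) or MYCN-high 3-day replicate C (-0.28), and with no filter (-0.43). Its nearest patterns were THOC3 (r = 0.996), an mRNA export factor, LOC728554 (r = 0.996) and SNRPD3 (r = 0.990), a core splicing protein.

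H2AFY2, the second macroH2A gene, was counted with 0 to 22 reads per library and 126 reads in all. It had 17 and 21 reads in MYCN-high cells at 8 days, against 2 and 2 reads in MYCN-low cells, the single comparison in which it was called (3.44 ± 1.14, adjusted p = 0.0234). It passed the filter on low counts through MYCN-high libraries, where its counts are highest, so this call is a description and no separate support. At such depth the value is loose, and the call was lost without either MYCN-low 8-day library (3.62 and 3.16) or without MYCN-high 8-day replicate C (3.18). At 14 days it had 9 and 22 reads in MYCN-high cells and 9 reads in the MYCN-low library.

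H2AFJ, the variant linked with senescence, was hardly counted. It had 14 reads in all, 0 in 14 of 19 libraries, and its highest count, 8 reads, was in MYCN-low untreated replicate B. The MYCN-low libraries at 72 h, 3 days and 14 days were all at 0, and those at 8 days had 0 and 1 reads. In the same libraries the arrest and damage genes CDKN1A, GDF15 and MDM2 summed to 3983 and 3237 CPM at 72 h and 2258 and 1674 CPM at 3 days. Their sum was 1598 and 1541 CPM at 8 days and 1854.5 CPM at 14 days, against 312 and 393.5 CPM in untreated MYCN-low cells. A count of 0 allows a level of up to between 0.109 and 0.181 CPM across libraries, from 3 reads as the limit, for counting error only. Reads lost for matching several copies are not covered by that limit. No change of H2AFJ was detectable in these counts in either state.

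H3F3A was listed at 0 in all 19 libraries. This cannot be read as absence, since reads that match several near-identical copies may be lost in such counts. How such reads were treated is not given in the sources used here. At 0 in every library were 3467 genes in all, among them 1 of 46 symbols of large ribosomal subunit proteins. Those 46 were picked by the form of the symbol, with no check that every cell uses them. H3.3 is therefore followed by H3F3B alone.

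H3F3B responded in MYCN-high cells at 72 h. In MYCN-high cells it had 1445 and 1491 CPM untreated, 765 and 904 CPM at 72 h, 685 and 759 CPM at 3 days, 939.95 and 968 CPM at 8 days, and 1243 and 1062 CPM at 14 days. In MYCN-low cells it had 1058 and 1369 CPM untreated, 1675 and 1296 CPM at 72 h, 859 and 1073 CPM at 3 days, 802 and 793 CPM at 8 days, and 728 CPM at 14 days. In MYCN-high cells the treated pairs lie below the untreated pair at every time, whereas in MYCN-low cells the 72 h and 3-day libraries overlap the untreated range and the later ones lie below it.

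At 72 h H3F3B had fallen by 0.81 ± 0.18 in MYCN-high cells (adjusted p = 0.00286), while the change in MYCN-low cells was 0.29 ± 0.18 (adjusted p = 0.272). The responses differed by -1.11 ± 0.26 (adjusted p = 0.0171). That call was lost without MYCN-low untreated replicate B (-0.93, adjusted p = 0.0512), MYCN-high untreated replicate C (-1.07, adjusted p = 0.0596) or MYCN-low 72 h replicate B (-0.89, adjusted p = 0.0856). At 3 days H3F3B stood at -1.02 ± 0.19 in MYCN-high cells (adjusted p = 0.000811).

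In MYCN-high cells the fall of H3F3B was smaller and less stable at 8 days than at 72 h and 3 days. In MYCN-low cells H3F3B was called lower only at 8 and 14 days. At 8 days the changes were -0.62 ± 0.18 in MYCN-high cells (adjusted p = 0.0483), lost without any one of its 4 libraries at values from -0.64 to -0.60, and -0.61 ± 0.18 in MYCN-low cells (adjusted p = 0.0257), lost without MYCN-low untreated replicate C (-0.38) or either 8-day library (-0.58 each). At 14 days the change was -0.74 ± 0.23 in MYCN-low cells (adjusted p = 0.0384), lost without MYCN-low untreated replicate C (-0.51, adjusted p = 0.0984). Between the states H3F3B was lower in MYCN-high cells at 72 h, at -0.83 ± 0.18 (adjusted p = 0.00322). It was higher in them at 14 days by 0.66 ± 0.23 (adjusted p = 0.0311), a call lost without MYCN-high 14-day replicate B (0.48, adjusted p = 0.163). PHACTR4 (r = 0.928), SYDE2 (r = 0.925) and KRT80 (r = 0.916) had the nearest patterns.

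**Figure D3:**
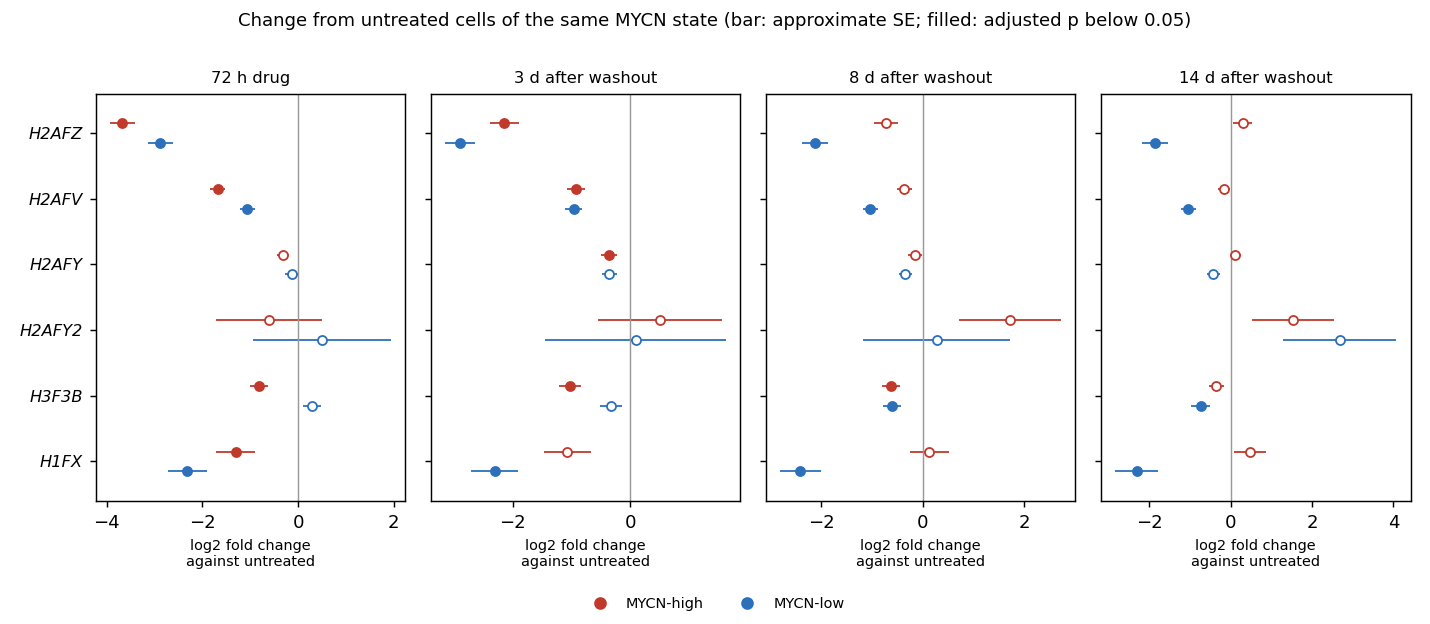
Log2 fold change of the 6 tested members against untreated cells of the same state (bars, approximate standard error; filled points, adjusted p below 0.05), with MYCN-high above MYCN-low in each row and 1 panel per time on its own axis range. H2AFZ and H2AFV were called lower in both states at 72 h and 3 days and in MYCN-low cells also at 8 and 14 days, and H1FX was called lower in MYCN-low cells at all 4 times.

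H1FX, the linker variant, fell after the drug in both states. It had 16.3 and 17.7 CPM in MYCN-high cells untreated, 4.75 and 9.04 CPM at 72 h, 6.74 and 9.49 CPM at 3 days, 21.4 and 15.8 CPM at 8 days, and 21.5 and 25.7 CPM at 14 days. In MYCN-low cells it had 75.1 and 24.6 CPM untreated, 9.74 and 10.2 CPM at 72 h, 10.4 and 9.66 CPM at 3 days, 10.1 and 8.62 CPM at 8 days, and 10.0 CPM at 14 days. All 7 treated MYCN-low libraries lie between 8.62 and 10.4 CPM. The MYCN-high libraries at 8 days lie on either side of their untreated pair, and those at 14 days lie above it. The untreated MYCN-low duplicates lie far apart, so each value set against them depends on replicate B.

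At 72 h H1FX had fallen by 1.31 ± 0.40 in MYCN-high cells (adjusted p = 0.0185), a call lost without MYCN-high untreated replicate B (-1.35) or C (-1.25) or MYCN-high 72 h replicate B (-0.91). In MYCN-low cells the change was -2.31 ± 0.40 at 72 h (adjusted p = 0.000698), and -2.31 ± 0.40, -2.41 ± 0.40 and -2.31 ± 0.53 at 3, 8 and 14 days. Without MYCN-low untreated replicate B these were -1.30, -1.29, -1.39 and -1.29, all still called, and without replicate C the 72 h and 3-day values were -2.93 and -2.92. The responses differed by 2.54 ± 0.56 at 8 days (adjusted p = 0.0157) and by 2.78 ± 0.65 at 14 days (adjusted p = 0.0194), which became 1.52 (adjusted p = 0.0450) and 1.76 (adjusted p = 0.0321) without MYCN-low untreated replicate B. The 8-day call was lost, at 2.30 to 2.64, without either MYCN-high untreated library, either MYCN-low 8-day library or MYCN-high 8-day replicate B, and the 14-day call, at 2.63 to 2.81, without either MYCN-high untreated library or MYCN-high 14-day replicate C. At 72 h the difference was 1.01 ± 0.56 (adjusted p = 0.249), and 1.63 without MYCN-low untreated replicate C (adjusted p = 0.00814).

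While the level of H1FX was lower at 72 h in both states, its share of linker histone RNA was higher. Of the summed CPM per kb of H1FX and 5 replication-dependent linker genes, H1FX held 0.657 and 0.569% in MYCN-high cells untreated, 2.43 and 2.98% at 72 h, 1.08 and 1.23% at 3 days, 0.786 and 0.482% at 8 days, and 0.602 and 0.790% at 14 days. The MYCN-low shares were 2.96 and 0.816% untreated, 4.88 and 4.53% at 72 h, 4.69 and 5.16% at 3 days, 4.03 and 3.19% at 8 days, and 3.11% at 14 days. In MYCN-high cells the 72 h and 3-day pairs lie above the untreated pair and the later pairs overlap it, whereas every treated MYCN-low library lies above both untreated ones. The summed level behind these shares was 130 and 202 CPM per kb in MYCN-high cells at 72 h, against 1648.5 and 2066.5 CPM per kb untreated.

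Before treatment H1FX was lower in MYCN-high cells, at -1.55 ± 0.39 (adjusted p = 0.00678), and the call was lost without MYCN-low untreated replicate B (-0.53, adjusted p = 0.255). At 8 and 14 days the values were 0.99 ± 0.39 (adjusted p = 0.0529) and 1.23 ± 0.51 (adjusted p = 0.0618). An antisense gene overlaps H1FX in the GENCODE annotation, and without a stated strand setting their reads cannot be told apart. RBM23 (r = 0.977), KAT5 (r = 0.967) and CCHCR1 (r = 0.959) had patterns most like H1FX.

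**Figure D4:**
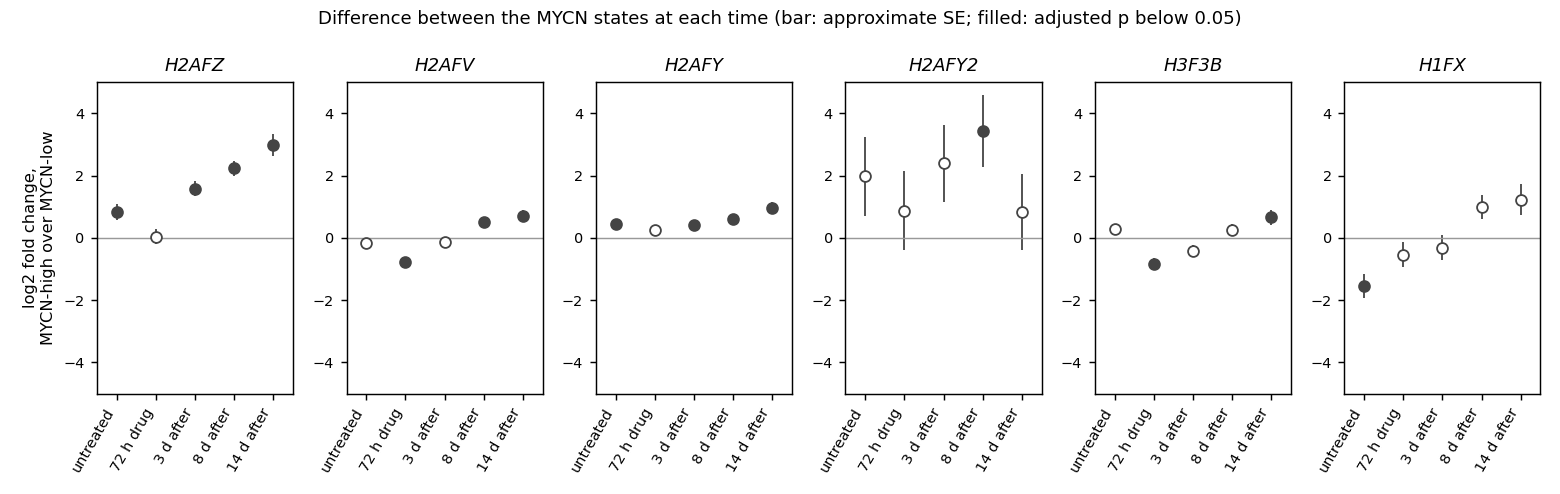
Log2 fold change of MYCN-high over MYCN-low cells for the 6 tested members at each time (bars, approximate standard error; filled points, adjusted p below 0.05). H2AFZ stands at 0.04 at 72 h and at 2.99 at 14 days, and H1FX passes 0 between 3 and 8 days.

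The factors that place H3.3 and exchange H2A.Z were followed as lists. Of 8 tested genes for H3.3 deposition, 3 were lower and 0 higher in MYCN-high cells at 72 h, and 1 was lower and 2 higher in MYCN-low cells; under ERCC scaling none passed in either state. Of all tested genes 17.9% were lower and 18.3% higher in MYCN-high cells and 12.1% lower and 10.2% higher in MYCN-low cells, so the share called in MYCN-high cells, 3 of 8, is near the 36.2% over all genes. The list's median was -0.41 in MYCN-high cells and -0.33 in MYCN-low cells, against 0.03 and 0.01 over all genes. DEK, a chromatin protein that also acts as an H3.3 chaperone, fell by 2.78 ± 0.20 in MYCN-high cells (adjusted p = 4.9e-07) and by 1.68 ± 0.19 in MYCN-low cells (adjusted p = 1.23e-05). ASF1A, a chaperone that hands histone H3 to the deposition complexes, fell by 0.75 ± 0.19 in MYCN-high cells (adjusted p = 0.00673), lost without MYCN-high untreated replicate C (-0.61) or MYCN-high 72 h replicate C (-0.60). In MYCN-low cells UBN2, of the HIRA complex, rose by 0.77 ± 0.19 (adjusted p = 0.00856) and ATRX, the remodeller that works with DAXX, by 0.84 ± 0.24 (adjusted p = 0.0215). Both calls were lost without MYCN-low untreated replicate B (UBN2 0.64, ATRX 0.45) or MYCN-low 72 h replicate C (0.66 and 0.71), and that of ATRX without MYCN-low 72 h replicate B (0.94, adjusted p = 0.0507). The list's count of 3 in MYCN-high cells was 1 without MYCN-high untreated replicate C, and its lower count of 1 in MYCN-low cells was 4 without MYCN-low untreated replicate C.

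Of 15 tested genes of the H2A.Z exchange machinery, 4 were lower and 1 higher in MYCN-high cells at 72 h, and 5 lower and 1 higher in MYCN-low cells, with none passing under ERCC scaling. The 5 called in MYCN-high cells are no larger a share than the 36.2% of all genes, and the 6 in MYCN-low cells stand beside 22.3%. The median was -0.22 in MYCN-high cells and -0.34 in MYCN-low cells. ANP32E, the chaperone that removes H2A.Z from chromatin, fell by 2.12 ± 0.26 in MYCN-high cells (adjusted p = 1.5e-05) and by 1.51 ± 0.25 in MYCN-low cells (adjusted p = 0.000446). YEATS4, a histone reader shared by the SRCAP and TIP60 complexes, fell by 1.78 ± 0.29 in MYCN-high cells (adjusted p = 0.000228), whereas ZNHIT1, an SRCAP subunit, rose by 0.95 ± 0.17 (adjusted p = 0.000582). RUVBL2, an ATPase of both complexes, fell by 1.28 ± 0.15 in MYCN-low cells (adjusted p = 1.23e-05), in which MBTD1, a TIP60 subunit, rose by 0.76 ± 0.22 (adjusted p = 0.0227), lost without MYCN-low untreated replicate B (0.47) or MYCN-low 72 h replicate C (0.57). The lower count in MYCN-high cells was 2 without any one of its 4 libraries.

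Between the states, untreated MYCN-high cells had 7 of the 15 exchange genes higher and 2 lower, beside 16.5% of all genes higher and 18.6% lower, with a median of 0.18 against -0.04 over all genes. RUVBL1 was higher by 1.31 ± 0.14 (adjusted p = 1.66e-05) and MBTD1 by 1.11 ± 0.22 (adjusted p = 0.00139). KAT5, the acetyltransferase of the TIP60 complex, was lower at -0.72 ± 0.17 (adjusted p = 0.00552), and DMAP1, another subunit, at -0.63 ± 0.22 (adjusted p = 0.0365), a call lost without any one of the 4 untreated libraries at values from -0.74 to -0.55. The higher count was 3 without MYCN-high untreated replicate B, 3 without MYCN-low untreated replicate B and 4 without MYCN-high untreated replicate C. Of the H3.3 genes 2 were higher and 1 lower: ASF1A by 1.13 ± 0.20 (adjusted p = 0.000511), DEK by 0.63 ± 0.19 (adjusted p = 0.0176) and CABIN1, of the HIRA complex, by -0.54 ± 0.20 (adjusted p = 0.0461). The calls of DEK (0.50 and 0.39) and CABIN1 (-0.56 and -0.22) were lost without MYCN-high or MYCN-low untreated replicate B, and that of CABIN1 also without MYCN-high untreated replicate C (-0.58).

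By 14 days 8 of the 15 exchange genes were higher in MYCN-high cells and 0 lower, and 2 of the 8 H3.3 genes were higher, beside 21.4% of all genes higher and 20.5% lower. The medians were 0.89 for the exchange genes and 0.18 for the H3.3 genes, whose count of 2 is near that share. RUVBL1 stood 1.98 ± 0.18 higher (adjusted p = 3.16e-06), RUVBL2 1.82 ± 0.20 (adjusted p = 9.55e-06), DEK 1.88 ± 0.25 (adjusted p = 5.18e-05) and ASF1A 1.34 ± 0.25 (adjusted p = 0.000627). None of these counts passed under ERCC scaling.

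The replication-dependent linker histones fell in both states. All 4 tested genes were lower at 72 h in both states, and 4 of 4 were higher in MYCN-high cells at 14 days; under ERCC scaling 0, 1 and 0 passed. Over all genes 17.9% were lower in MYCN-high cells and 12.1% in MYCN-low cells at 72 h, and 21.4% were higher in MYCN-high cells at 14 days. The list's medians were -3.60, -4.31 and 3.01 in these comparisons. HIST1H1C averaged 50.1 CPM in MYCN-high cells at 72 h, against 257 CPM untreated, a change of -2.36 ± 0.17 (adjusted p = 4.9e-07). In MYCN-low cells it averaged 65.1 CPM at 72 h, against 304 CPM untreated (-2.22 ± 0.17, adjusted p = 3.06e-07). HIST1H1E fell by 2.36 ± 0.22 in MYCN-high cells (adjusted p = 2.13e-06) and by 3.85 ± 0.24 in MYCN-low cells (adjusted p = 9.59e-08). At 14 days HIST1H1C was 2.52 ± 0.23 higher in MYCN-high cells (adjusted p = 3.16e-06) and HIST1H1E 2.50 ± 0.30 (adjusted p = 1.87e-05). In untreated cells 0 of 4 differed between the states by edgeR, with 0 at an unadjusted p below 0.05.

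Of 6 other histone variants tested, 5 were lower in MYCN-high cells at 72 h and 3 in MYCN-low cells, against 0 and 1 under ERCC scaling. They stand beside 17.9% and 12.1% of all genes called lower, with medians of -2.53 and -2.88. The count of 5 was 3 without replicate C of either MYCN-high group. CENPA, the centromeric H3 variant, averaged 2.02 CPM in MYCN-high cells at 72 h, against 39.6 CPM untreated, and had 6 reads in all in MYCN-low cells at 72 h, against 1647 reads untreated. H2AFX, the variant phosphorylated at DNA breaks, fell by 3.63 ± 0.41 in MYCN-low cells (adjusted p = 9.46e-06). HIST3H2BB fell by 2.47 ± 0.34 in MYCN-high cells (adjusted p = 5.13e-05), with 1.20 CPM at 72 h, against 6.69 CPM untreated. Untreated MYCN-high cells had more HIST3H2A, 71.5 CPM against 17.4 CPM (2.04 ± 0.24, adjusted p = 3.35e-05). H3F3C, an H3.3-like gene, stood at -2.08 ± 0.64 (adjusted p = 0.0199), a call lost without MYCN-low untreated replicate B (-0.51) or MYCN-high untreated replicate C (-1.58). At 14 days MYCN-high cells had 4 of the 6 higher, beside 21.4% of all genes, including HIST3H2A by 2.86 ± 0.33 (adjusted p = 1.41e-05) and HIST3H2BB by 3.67 ± 0.49 (adjusted p = 4.53e-05).

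Of 7 listed RNA-quality genes 2 were in the table, RMRP and RPPH1, the RNA parts of RNases MRP and P. Their sum was 5012 and 6361 CPM in MYCN-high cells at 72 h, against 2521 and 2783 CPM untreated, and both were called higher there and at 3 days. It was still 3961 and 4908 CPM at 8 days and 5076 and 6462 CPM at 14 days, when neither gene was called. At 14 days 0% of all tested genes were called. Both RNA-quality genes then had an unadjusted edgeR p below 0.05, with a median log2 fold change of 1.14, against 1.15 at 72 h. For MYCN-low cells the sum was 2157 CPM in replicate B and 3597 CPM in C at 72 h, against 5794 CPM in B and 2472.5 CPM in C untreated. That untreated replicate B is also the library in which H1FX stood at 75.1 CPM. The part of RMRP and RPPH1 in the falls of the members was not tested.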

How the data were processed

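The deposited table holds raw read counts per gene symbol for 19 libraries, made by the authors. Per the submitters' processing notes, STAR 2.4.0h1, HTSeq and hg19 were used; the annotation, strand setting and treatment of multiply matching reads are not given in the sources used here. Per the labels' protocols, ERCC mix was added, ribosomal RNA removed with RiboGold and libraries made with ScriptSeq, while the molecule field says polyA RNA.

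Counts of genes were tested in R 4.3.3 with edgeR 4.0.16 (ERCC set aside, filterByExpr, TMM, 1 coefficient per group over all libraries, quasi-likelihood test, 9 residual degrees of freedom). The 17 comparisons were each adjusted by Benjamini-Hochberg over 14793 genes at 0.05. The lone MYCN-low 14-day library is assumed to vary like other groups. CPM divides by a library's summed counts of tested genes times its TMM factor. CPM per kb uses exon lengths of the RefSeq-matched transcripts in GENCODE 29. Standard errors were derived from the fold change and its F value. The procedure was tested on simulated data.

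The members and the lists were chosen with earlier results of these data known. 1 gene of the chosen set and 1 marker gene are not reported here. Named partner genes are, per list and direction, at most the 2 called genes of smallest p; likeness is Pearson's r of log2 CPM (prior count 2) among genes of at least 5 CPM on average, a description with no p. Alternatives were DESeq2 1.42.0 size factors and Wald test, ERCC scaling, no filter, a replicate block and leaving out each library. Figures used Python 3.11.15 and matplotlib 3.10.9.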

Additional observations from a re-analysis of the deposited data

Results flagged for a closer look

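These results were picked out because the responses of the states differed in a test of the difference itself, the change in MYCN-high cells minus the change in MYCN-low cells. At 72 h of doxorubicin H3F3B had a difference of -1.11 on the log2 scale (edgeR adjusted p = 0.0171), with 765 and 904 CPM in MYCN-high cells and 1675 and 1296 CPM in MYCN-low cells. For H2AFZ the difference was 1.40 at 8 days after washout (adjusted p = 0.0268) and 2.15 at 14 days (adjusted p = 0.00643), where MYCN-high libraries had 775 and 688 CPM and the MYCN-low library 92.3 CPM. H2AFV followed at 14 days with 0.87 (adjusted p = 0.0396). H1FX had 2.54 at 8 days (adjusted p = 0.0157) and 2.78 at 14 days (adjusted p = 0.0194), values that became 1.52 and 1.76 without MYCN-low untreated replicate B, in which H1FX stood at 75.1 CPM. The 14-day differences rest on 1 MYCN-low library. The H2AFZ difference at 14 days kept its call when each of the 6 libraries in the duplicated groups was left out in turn; without the lone MYCN-low 14-day library it has no value. The other 5 differences were lost in at least 1 fit without a library.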

How the results depend on the processing

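DESeq2 size factors left 99 of 102 member results in the same direction and on the same side of the threshold, the replicate block 100, DESeq2's Wald test 91 and no filter 89; leaving out 1 library did so in 382 of 468 refits and reversed none that was called. The main fit did not pair the samples by the letters B and C. Over 36 pairs of groups the correlation of deviations ran from -0.208 to 0.315, with a median of 0.108, and 22 exceeded 0.1. What libraries of the same letter share was not tested. The block added H2AFV to the called members for the difference at 72 h (-0.63, adjusted p = 0.0466), where the count became 2, and at 8 days (0.66, adjusted p = 0.0469), where it became 3; it changed no other member's call. For the difference at 72 h the count was 3 with no filter and 2 with the Wald test. Members called in MYCN-high cells at 8 days numbered 2 with no filter and 3 with the Wald test, and for the difference at 3 days 1 with each. Between the states at 3 days 1 was called with no filter. H3F3B in MYCN-low cells at 14 days (-0.67, adjusted p = 0.0505) and H2AFV for the difference at 14 days (0.80, adjusted p = 0.0504) lost their calls with DESeq2 size factors. With no filter H2AFY lost its calls between the states untreated and at 3 days and in MYCN-high cells at 3 days, and H2AFV its calls between the states at 8 days and for the difference at 14 days (0.83, adjusted p = 0.0821), while 7 results gained one. The lower CABIN1 call in untreated cells was lost with DESeq2 size factors (-0.53) and no filter (-0.52), and that of DMAP1 with no filter (-0.61).

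With 1 library left out, called members ranged between 1 and 3 for the states untreated, 1 and 2 at 3 days, 2 and 4 at 8 days and 2 and 4 at 14 days. In MYCN-high cells at 8 days 0 were called in each such fit. For the differences they ranged between 0 and 3 at 72 h, 0 and 2 at 3 days, 0 and 3 at 8 days, and 1 and 3 at 14 days.

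ERCC RNAs made up 0.0116% to 0.537% of counts, and scaling by them called 0 members in every comparison. For MYCN-high over MYCN-low cells it gave at 72 h 1.62 for H2AFV and 1.66 for H3F3B, and at 14 days -0.073 for H2AFV and -0.092 for H3F3B. Against untreated MYCN-high cells it gave at 72 h 0.60 for H2AFV, 1.46 for H3F3B and 0.62 for H1FX, at 3 days 0.66 for H2AFV, 1.27 for H2AFY and 0.54 for H3F3B, and at 8 days 0.50 for H3F3B. H3F3B was 0.35 in MYCN-low cells at 8 days, and 0.79 for the difference at 72 h; H2AFV was -0.52 for the difference at 14 days. Among partners it gave 0.29 for CABIN1, 0.050 for DMAP1 and 0.019 for KAT5 between untreated states, and 1.81 for ASF1A, 0.36 for ANP32E, 0.75 for YEATS4 and 0.14 for HIST1H1C in MYCN-high cells at 72 h. All of these have the opposite sign to the TMM values. By construction this scaling moves each gene by about the shift of the median. Measured from that median, called member results lay within 0.511 of their TMM values. H2AFY2 and H2AFJ are limited by depth, with at most 22 and 8 reads in a library.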
